A study of Mus musculus with 2 samples.

Results

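Runx3 occupancy was examined at the gene for interferon gamma (Ifng) and at the genes through which natural killer (NK) cells sense interleukin 12 (IL-12) and interleukin 18 (IL-18): Il18r1, Il18rap, Il12rb2 and Stat4. The peaks were those of the deposited Runx3 list whose midpoint fell in 4 windows of the mouse genome, in mm9 coordinates: chromosome 10 from 117750000 to 118050000 for Ifng, chromosome 1 from 40350000 to 40650000 for Il18r1 and Il18rap, chromosome 6 from 67180000 to 67360000 for Il12rb2, and chromosome 1 from 51950000 to 52170000 for Stat4. The windows held 39 of the 19647 peaks in the list: 13 at Ifng, 14 at Il18r1 and Il18rap, 6 at Il12rb2 and 6 at Stat4. The peaks were taken by coordinates only and by no measured value. The genes themselves were chosen with earlier results of these data known.

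The study made 2 chromatin immunoprecipitation sequencing (ChIP-seq) libraries from splenic NK cells of wild-type mice of the ICR strain, an outbred stock. One was immunoprecipitated with a polyclonal Runx3 antibody made in house, and its control with non-immune rabbit serum. Both came from mice that had received 2 injections, 2 days apart, of IL-15 in complex with its receptor alpha chain, so the data hold no untreated cells. Per library 40000000 cells were used after negative selection and a sort for NKp46, an activating receptor that marks NK cells; the sources used here do not say how many mice were pooled. Each antibody has 1 library, no control values were used here, and the list carries no read counts, so the errors given are counting intervals that treat peaks as independent, and the depth behind a peak is unknown. The list gives no RNA levels, so the cell type was not checked against marker genes.

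IL-12 binds a receptor of 2 chains on NK cells; the chain encoded by Il12rb2 carries the docking site for STAT4, which once phosphorylated enters the nucleus and acts on target genes, Ifng among them. IL-18 is bound by the chain encoded by Il18r1, and the accessory chain encoded by Il18rap completes a receptor that signals through the adaptor MyD88. IL-12 and IL-18 together are a strong stimulus for NK cells to secrete interferon gamma, and Ifng is known for regulatory elements spread over a long stretch on both sides of the gene. Runx3 is a Runt-domain transcription factor of NK cells and cytotoxic T cells; Runt-domain proteins bind the letters TGTGGT or TGCGGT.

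Promoter sequences of the 5 genes were taken from RefSeq on the build GRCm38.p6, which is not the build of the peaks, so no peak could be placed in or outside a promoter. Each window ran from 250 bases before an annotated gene start to 50 bases after it. TGTGGT or TGCGGT, sought on both strands, was present in 3 of the 8 windows of these genes, against 22.4% of the 32851 windows of all genes in the same table. Il18r1 has 3 windows, of which the first 2 overlap, Stat4 has 2, and the others have 1. The sequences below show the matches in Il12rb2, Il18r1 and Il18rap, and Ifng as a gene whose window has none. They are written 5′ to 3′ on the gene's own strand, the match in capitals; Il12rb2 lies on the minus strand and the others on the plus strand. For Ifng and Il12rb2 the 250 bases before the start are given, and for the matches that lie after a start 30 bases around them.
Ifng: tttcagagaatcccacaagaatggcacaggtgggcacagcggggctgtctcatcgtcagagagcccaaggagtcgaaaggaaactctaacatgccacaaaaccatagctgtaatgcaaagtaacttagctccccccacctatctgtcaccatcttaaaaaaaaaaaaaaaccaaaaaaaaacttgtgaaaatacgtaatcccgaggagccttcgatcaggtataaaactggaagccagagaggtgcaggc
Il12rb2: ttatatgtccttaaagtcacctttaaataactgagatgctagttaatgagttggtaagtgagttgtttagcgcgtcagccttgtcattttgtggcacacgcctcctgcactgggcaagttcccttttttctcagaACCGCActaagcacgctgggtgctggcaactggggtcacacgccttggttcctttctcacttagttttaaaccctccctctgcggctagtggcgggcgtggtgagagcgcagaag
Il18r1, second start: acaggtggttctTGTGGTtgagtagacagg
Il18rap: caactaaacctaACCACAacccctttcttg
The match in Il12rb2, ACCGCA, is TGCGGT read on the opposite strand, and it begins 115 bases before the start. In Il18rap the match ACCACA, which is TGTGGT on the opposite strand, begins at base 32 from the start. In Il18r1 the letters TGTGGT begin at base 22 from the second annotated start. The windows of Ifng and Stat4 do not hold these letters, which says nothing about binding outside them. With 1 more T at the end (TGTGGTT or TGCGGTT) 3 of the 8 windows still matched, against 6.75% of all windows. Of 14 other genes of the IL-12, IL-18 and interferon gamma pathways, 13 were in the table, and 6 of them had TGTGGT or TGCGGT: Il18 and Il12a, which encode ligands or their subunits, Il18bp, which encodes a soluble inhibitor of IL-18, the kinase genes Tyk2 and Irak1, and the adaptor gene Traf6. Among all 27025 genes with a promoter sequence, 6764 had these letters in at least 1 window. With the longer letters 1 of the 13 matched, Il18, against 7.77% of all genes.

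The window of the IL-18 receptor genes held the most peaks, 14 against 13 at Ifng. With peaks joined across gaps of up to 100 bp, both windows held 13. Among peaks at or above the median width of the whole list the window of the IL-18 receptor genes held the fewest, 2. Where the peaks lie relative to the genes was not determined. Il18r1 and Il18rap are neighbours, with Il1rl1 (the receptor for interleukin 33) on one side and Slc9a4 (an ion exchanger) on the other. Their window of 300 kb held 14 peaks, or 4.67 per 100 kb (95% Poisson interval 2.55 to 7.83), 7.47 times the 0.624 per 100 kb of the rest of chromosome 1. Of 639 other windows of 300 kb laid end to end along this chromosome, 7 (1.10%) held as many peaks or more; their median was 0 peaks and the fullest held 17. The windows directly before and after held 2 peaks each.

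The 14 peaks lay between 40436986 and 40588652, with 10 of them in the 2 sections of 50 kb that follow the window's centre, and the first 87.0 kb and last 61.3 kb of the window were empty. A chain of 5 peaks, each with its midpoint at most 10 kb from the next, occupied 14.4 kb from 40522320 to 40536689. Its peaks began at 40522320, 40526746, 40530445, 40532490 and 40536347, and measured 449, 513, 503, 558 and 343 bp. All 5 were thus narrower than the median of the whole list, 604 bp. Chains of 5 or more were found in 1.88% of the other windows, and the whole list held 268 of them. Of the other windows, 54.0% held no peak and so could hold no chain. At none of the loci were chains compared among windows with as many peaks. After the chain of 5 came a pair, from 40557802 to 40558299 and from 40558379 to 40559385, only 79 bp apart. Its second member was the widest peak of the locus at 1007 bp. A chain of 3 peaks followed, starting at 40572044, 40580828 and 40588198, with widths of 493, 467 and 455 bp. On the lower-numbered side there was a pair starting at 40449937 and 40451371, with widths of 689 and 358 bp, and 2 single peaks started at 40436986 and 40498572. The longest stretch without a peak between members ran for 46.8 kb, from 40451729 to 40498571. In all, 12 of the 14 peaks had a neighbour within 10 kb.

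Il12rb2 lies between Serbp1 and Il23r, the gene for a receptor chain of interleukin 23. Its window of 180 kb held 6 peaks, or 3.33 per 100 kb (1.22 to 7.26), which was 4.87 times the rest of chromosome 6. As many or more were present in 51 of 809 equal windows (6.30%), and the windows directly before and after held 0 and 2 peaks. The first peak, from 67216645 to 67217250 (606 bp), stood apart, with 72.1 kb without a peak behind it. Of the other 5, a pair lay at 67289390 to 67289871 (482 bp) and 67297955 to 67298515 (561 bp). A second pair lay at 67317113 to 67317527 (415 bp) and 67325770 to 67326602 (833 bp, the widest of the locus). The last peak ran from 67349332 to 67350007 (676 bp). Where these 6 peaks lie relative to Il12rb2 and its neighbouring genes was not determined. The midpoints of the closest pair were 8.60 kb apart, so this locus held no tight group: its longest chain was of 2 peaks, which 15.9% of the other windows reached or passed.

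Stat4 encodes the signal transducer of the IL-12 receptor; where its peaks lie relative to the gene was not determined. The window of 220 kb held 6 peaks, or 2.73 per 100 kb (1.00 to 5.94), 4.34 times the rest of chromosome 1. Equal windows with 6 or more peaks numbered 66 of 872 (7.57%), and the windows directly before and after held 0 and 4 peaks. The density was the lowest of the loci, but 5 of the 6 peaks lay in the same 50 kb section of the window. Peaks at 52065741 to 52066232 (492 bp), 52068065 to 52068611 (547 bp), 52076386 to 52077569 (1184 bp) and 52078991 to 52079518 (528 bp) formed a chain of 4 over 13.8 kb. Chains of 4 or more were present in 2.98% of the other windows. The fifth of these peaks, at 52091461 to 52092694, was the widest of all 39 at 1234 bp. The remaining peak, at 51991190 to 51991884 (695 bp), was separated from the chain by 73.9 kb without a peak. The next listed peak beyond the window lay 0.687 kb past its end, 78.6 kb from the last member.

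Ifng, the output gene of the pathway, lies between Iltifb and Dyrk2 among protein-coding genes, with Il22 (interleukin 22) next to Iltifb. Its window of 300 kb held 13 peaks, or 4.33 per 100 kb (2.31 to 7.41), 4.99 times the rest of chromosome 10. Of 421 other windows, 14 (3.33%) held 13 or more, up to a maximum of 38. The adjoining windows held 9 peaks before and 8 after, more than those beside the other loci, and 90% of windows on the chromosome held 8 or fewer. The peaks at Ifng were nonetheless set off from those neighbours: the next listed peak was 229.0 kb from the first member and 166.6 kb from the last. Distances at least that long separated 9.76% and 12.8% of neighbouring peaks in the whole list. Such distances were not particular to Ifng. On the lower-numbered side they were 229.6 kb at Il12rb2, 349.6 kb at Stat4 and 96.9 kb at Il18r1 and Il18rap. On the higher-numbered side they were 15.8 kb, 78.6 kb and 156.5 kb, in the same order.

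Within the window the Ifng peaks were widely spread, over 229.6 kb from 117807449 to 118037085, against 151.7 kb at the IL-18 receptor genes in a window of the same length. In successive 50 kb sections the counts were 0, 4, 3, 3, 2 and 1. The longest chain held 4 peaks in 12.4 kb from 117895773 to 117908190, starting at 117895773, 117903675, 117905985 and 117907265. These measured 392, 502, 649 and 926 bp, so the chain contained both the narrowest and the widest peak of the locus. Chains of 4 or more occurred in 5.23% of the other windows. A chain of 3 lay to the lower-numbered side, starting at 117841491, 117843811 and 117844708, with widths of 451, 624 and 519 bp; the last 2 were the closest pair, 273 bp apart. The other 6 peaks stood alone, starting at 117807449, 117856148, 117877604, 117963815, 117987278 and 118036364, with widths of 436 to 722 bp. The longest stretch without a peak between members, 55.6 kb, followed the chain of 4 (117908191 to 117963814). Whether any peak overlaps the Ifng promoter, an intron or a known enhancer was not determined, since no annotation of the peaks' build was used here.

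**Figure D1:**
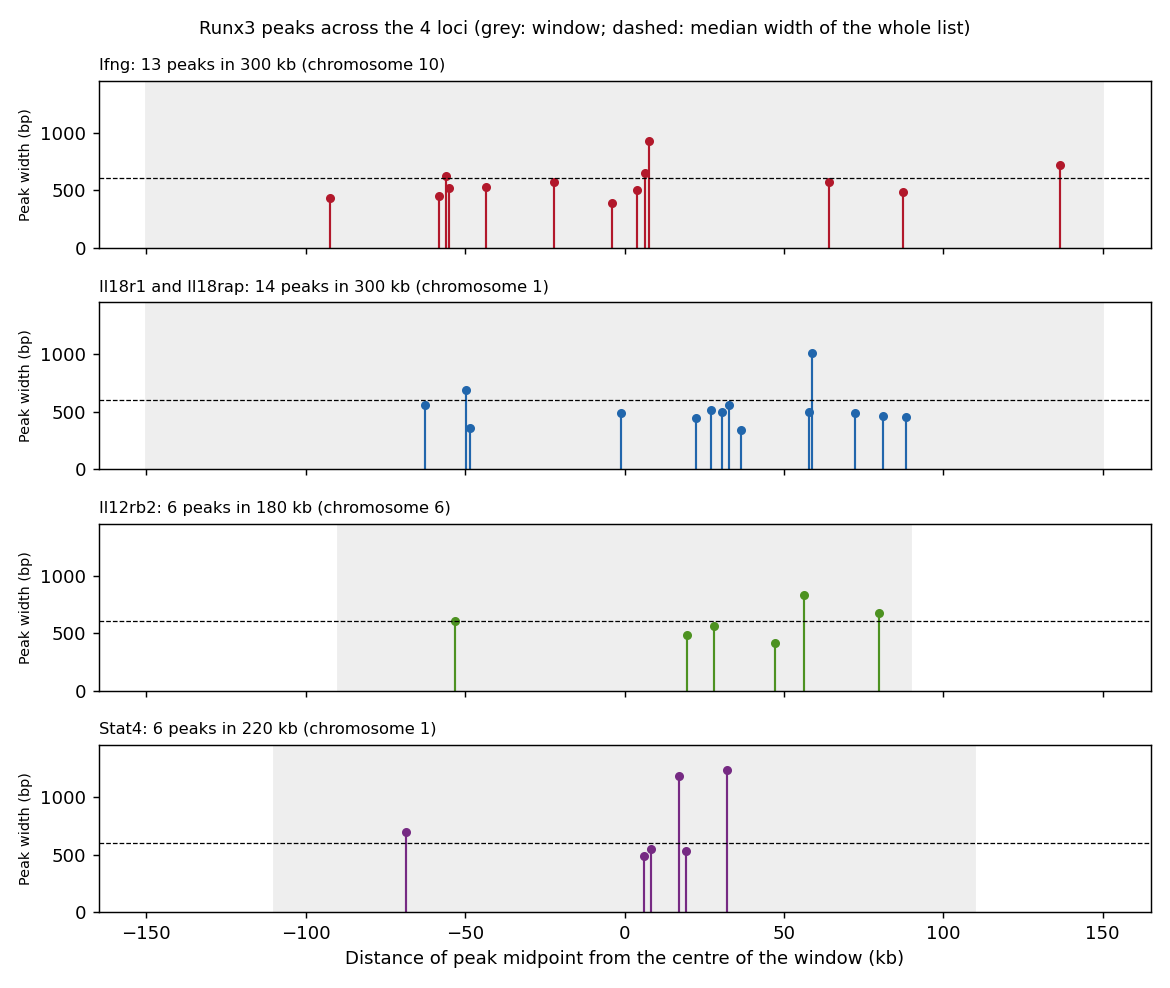
Runx3 peaks in the 4 windows (grey), drawn by the distance of their midpoint from the window's centre in kb (x axis) against their width in bp (y axis); the dashed line is the median width of the whole list, 604 bp. Ifng peaks span 229.6 kb, whereas 5 of the 6 Stat4 peaks lie on the higher-numbered side of the centre, apart from the first one by 73.9 kb.

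Set side by side, the loci ranked in density from the IL-18 receptor genes (4.67 per 100 kb) through Ifng (4.33) and Il12rb2 (3.33) to Stat4 (2.73). None of the 6 pairs could be told apart by counting error. The ratio of the highest to the lowest was 1.71 with an exact 95% interval of 0.618 to 5.43, and that of the IL-18 receptor genes to Il12rb2 was 1.40 (0.505 to 4.44). Ifng stood at 0.929 times the IL-18 receptor genes (0.402 to 2.13) and at 1.30 times Il12rb2 (0.461 to 4.17) and 1.59 times Stat4 (0.563 to 5.10). Il12rb2 against Stat4 gave 1.22 (0.327 to 4.57). These intervals allow differences of more than 2-fold in density for each pair, so they do not show that the loci were alike. Together the windows carried 3.90 peaks per 100 kb, 5.07 times the mean of 0.769 over the span of the whole list; peaks lie in groups along the genome, which the counting intervals leave out.

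**Figure D2:**
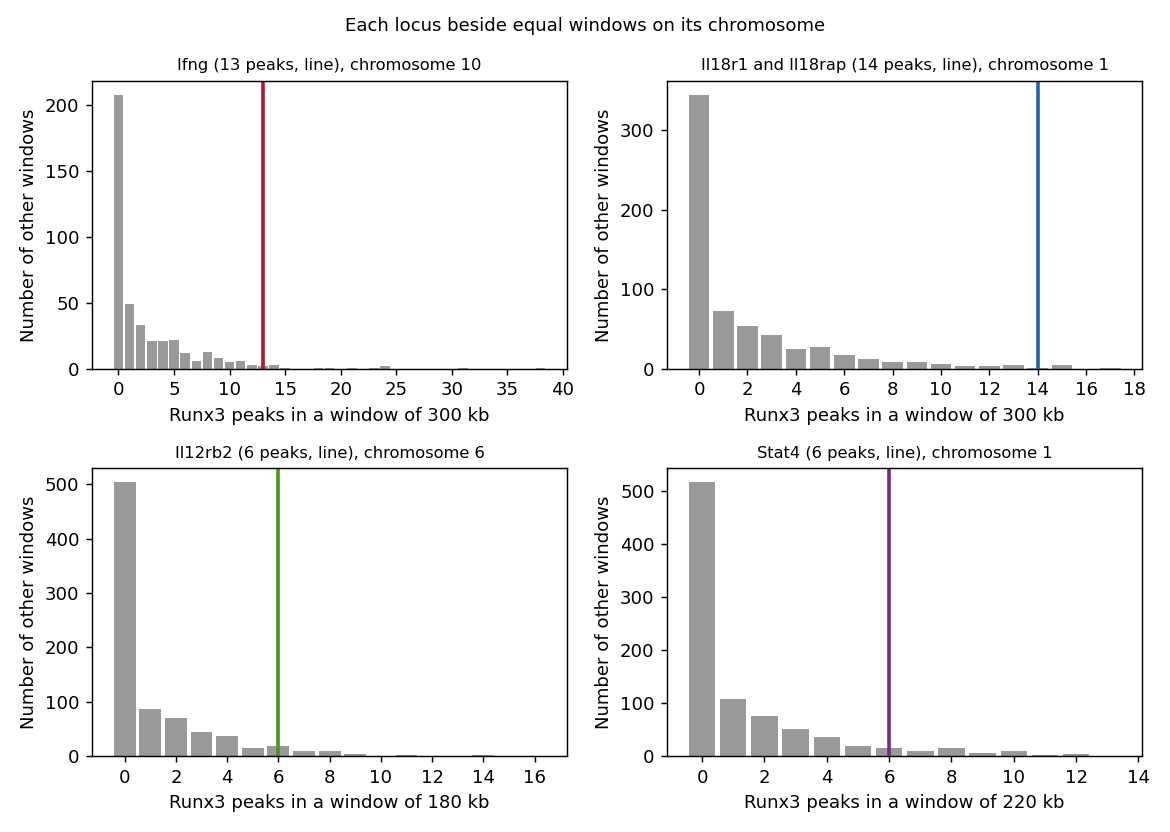
Number of other windows (y axis) by the Runx3 peaks each holds (x axis), for windows of the locus's own length laid end to end on its chromosome; the coloured line marks the locus. The line lies far to the right for Il18r1 and Il18rap, where 7 of 639 windows reach it, and less far for Stat4, where 66 of 872 do.

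The peaks in the windows of the IL-18 receptor genes and of Ifng were mostly narrower than the median of the whole list. The list gives no height, so width is the one measure available for each peak, and wide peaks need not be stronger ones. At Il18r1 and Il18rap the median width was 495.5 bp (343 to 1007), against 600.0 bp on chromosome 1, and 2 of 14 peaks reached the list's median of 604 bp, which 50.1% of all peaks do by construction. Other windows of 300 kb on this chromosome with 5 or more peaks had a median width as low or lower in 8 of 99 cases (8.08%), and none of the 7 windows that held as many peaks did, their medians running from 533.5 to 637.0 bp. When only peaks of 604 bp or more were counted, the density at Il18r1 and Il18rap was 2.15 times that of the rest of the chromosome, and 23.0% of equal windows held as many. At Ifng the median was 526.0 bp (392 to 926), and 4 of 13 peaks reached 604 bp. Of the 89 comparable windows on chromosome 10, 12 (13.5%) had medians as low. Among the 14 that held as many peaks or more, 1 did.

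Il12rb2 and Stat4 lay closer to the rest of the list in width. The 6 peaks at Il12rb2 had a median of 583.5 bp (415 to 833), and 36.4% of the windows with 5 or more peaks on chromosome 6 were as narrow. The 6 at Stat4 had a median of 621.0 bp (492 to 1234), and 58.8% of such windows on chromosome 1 were as narrow. Among windows with as many peaks or more, 16 of 51 were as narrow as Il12rb2 and 42 of 66 as narrow as Stat4. Stat4 was also the locus with 2 peaks wider than 1000 bp, at 1184 and 1234 bp, widths that 5.01% and 4.05% of all peaks reach. The IL-18 receptor genes had 1 such peak, and Ifng and Il12rb2 had 0. That makes 3 of 39 (7.69%), near the 10.4% of the whole list.

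**Figure D3:**
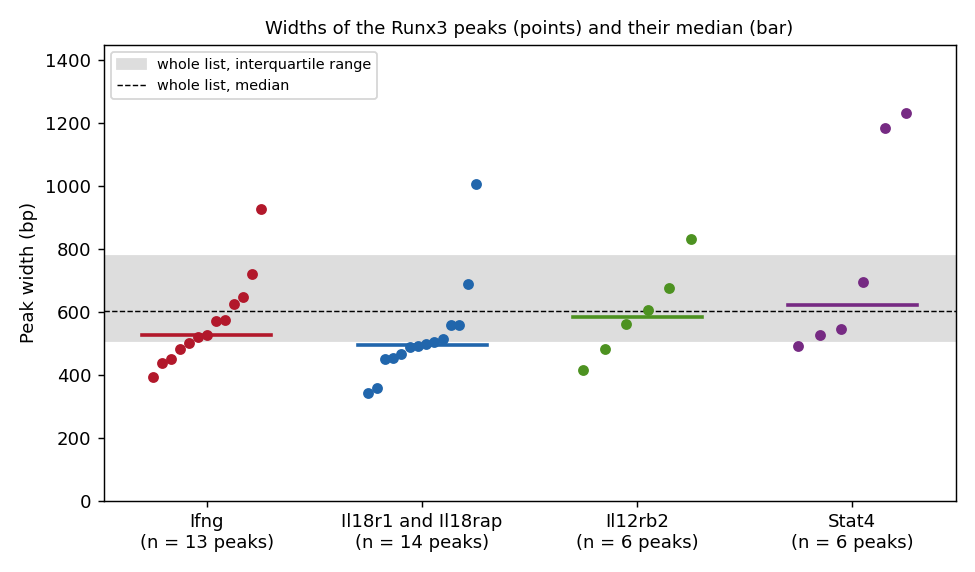
Width in bp (y axis) of each peak (points) at the 4 loci (x axis), with the median of each locus as a coloured bar; the grey band is the interquartile range of the whole list (506.0 to 778.0 bp) and the dashed line its median. Most points of Il18r1 and Il18rap lie below the dashed line, and the 2 highest points belong to Stat4.

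Spacing was compared with that of the whole list as a description, without a test. Of the 35 neighbouring pairs inside the windows, 18 (51.4%) were at most 10 kb apart, against 31.6% of the 19627 pairs of the whole list. The share was 61.5% at the IL-18 receptor genes (8 of 13 pairs), 60.0% at Stat4 (3 of 5), 41.7% at Ifng (5 of 12) and 40.0% at Il12rb2 (2 of 5). Only pairs inside the windows were counted, which leaves out the long distances at their edges and raises the share. By another count, 12 of the 39 peaks (30.8%) had no listed peak within 10 kb on either side, against 49.6% of all peaks. The windows held 3.90 peaks per 100 kb against 0.769 for the whole list, and a higher density alone brings neighbours closer. These shares were not compared at equal density, so they do not show grouping beyond it. Peaks filled 2.46% of the window at Ifng (7374 bp) and at the IL-18 receptor genes (7377 bp), 2.13% at Stat4 and 1.99% at Il12rb2.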

How the data were processed

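Per the labels' protocols, cells were fixed with 1% formaldehyde, fragments measured about 200 bp, and 50 bp reads were aligned with ELAND; the submitters' processing notes name mm9 and CASAVA 1.8.2. The authors deposited 1 list with 3 columns (chromosome, start, end) per Runx3 peak; the peak caller, threshold and use of control reads were not given in the sources used here. Its name includes "to small", so whether it is the full set is unknown. Starts are printed counted from 1.

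Peaks were assigned by midpoint and described with Python 3.11.15, numpy 2.4.6 and scipy 1.17.1, checked on simulated data. Equal windows were laid end to end from the locus within the span from the chromosome's first to last peak. The printed intervals are exact 95% Poisson or Clopper-Pearson intervals. Among the recomputed values, window shares were judged by 95% Wilson intervals. Median widths were judged by a binomial interval taken from the ranked widths. With 1 library per antibody no test was made. All peaks of the loci with 8 or fewer are given; elsewhere the widest peak, the closest pair, the longest chain and the longest empty stretch are named, the rest for completeness. The members and lists were chosen with earlier results of these data known; the width of other windows and the distances to outside peaks were added after values were seen. Gene order and promoters come from RefSeq (GRCm38.p6), with no coordinates taken from it. Location in genes and motifs in peaks were not analysed here.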

Additional observations from a re-analysis of the deposited data

How the results depend on the processing

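Of 114 recomputed values, 96 stayed within their interval or, for counts, within 1.5 times, 18 moved, and 0 reversed. Each density stayed above that of its chromosome. Several of the 96 had little room to move, so the tally is not a measure of robustness. At Il12rb2 and Stat4 the interval of the median width was the whole range of widths, and the pair shares rested on 5 pairs each. The covered share could not change at any locus, since no peak crossed a window edge. With the narrower peaks dropped (those under the list's median width) there were 4 peaks at Ifng, 2 at Il18r1 and Il18rap, 3 at Il12rb2 and 3 at Stat4. That setting keeps 50.1% of all peaks, so a count can pass the limit of 1.5 times from the setting alone. The density ratio was then 4.81 at Il12rb2 and 4.41 at Stat4, against 4.87 and 4.34 with all peaks. It fell from 4.99 to 3.02 at Ifng and from 7.47 to 2.15 at Il18r1 and Il18rap. The share of windows with as many peaks became 11.2% for Ifng, 23.0% for Il18r1 and Il18rap and 9.52% for Stat4. Among windows with at least 1 peak this share was 6.57% for Ifng, 2.38% for Il18r1 and Il18rap, 16.7% for Il12rb2 and 18.5% for Stat4, since empty windows are left out. Over all autosomes it was 2.43% for Il18r1 and Il18rap and 10.7% for Stat4. Narrowing the window by 25 kb on each side gave 0.261% for Il18r1 and Il18rap and 4.61% for Stat4, and widening it gave 5.07% for Stat4. Within 5 kb, 0% of neighbouring pairs remained at Il12rb2. Apart from the empty windows and the peaks that the width setting removes from any count, the cause was not tested. Why the counts fell further at Ifng and at Il18r1 and Il18rap was not tested either. Joining gaps of up to 100 bp left 13 peaks at Ifng and 13 at Il18r1 and Il18rap. Joining gaps of up to 1000 bp left 11 peaks at Ifng and 12 at Il18r1 and Il18rap. No paired analysis was possible because there is 1 library per antibody. Read depth is unknown, so missed weak sites cannot be counted.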
